A study of Mus musculus with 16 samples.

Results

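Shores are the stretches of lower CpG density on the flanks of CpG-dense DNA such as CpG islands. Here a shore was a 1-kb tile of GRCm39 chromosomes 1 to 19 that held 1 to 9 CpGs and started 1 or 2 kb from the start of a tile with at least 20 CpGs, which is called a CpG-rich tile below. A tile entered only with at least 3 CpG positions that were read at least 10 times in each of the 16 libraries (common sites). Its CpG number was the number of distinct CpGs listed in any library. The rule found 2533 shores, of 94337 tiles in all, and they were 3.94% of the 64316 tiles with 1 to 9 CpGs on these chromosomes. They were set against 56562 tiles of 1 to 9 CpGs that lay over 10 kb from any CpG-rich tile, called far tiles. The rule used CpG number and position and no methylation level.

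In mammals, CpG islands at active or poised promoters are usually free of DNA methylation, while the CpG-poor DNA around them is methylated by DNMT3A and DNMT3B and kept so through cell division by DNMT1. A shore spans the border between these states, and its methylation often differs between tissues. Shores are also among the regions where human fibroblasts and the pluripotent cells made from them were found to differ in methylation. TET enzymes oxidise methylcytosine and are abundant in pluripotent mouse cells.

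The study followed mouse embryonic fibroblasts (MEFs) in reprogramming medium by reduced representation bisulfite sequencing (RRBS), which reads the methylation of CpGs on DNA cut with MspI. Its groups were the MEFs before the change of medium (D0), reprogramming intermediates every 2 days (D2, D4, D6, D8, D10 and D12), and induced pluripotent stem cells (iPSCs), with 2 libraries in each of the 8 groups. All came from cells of 129XOG2 E13.5 embryos (OG2 mice carry a green fluorescent reporter of Oct4), the MEFs were of passages 1-3, and the iPSCs grew on feeder cells with LIF, CHIR99021 and PD0325901, inhibitors of GSK3 and MEK. The labels name neither the agents of the reprogramming medium nor the culture or passage the iPSCs came from, and the sources used here do not state whether feeder cells were removed before DNA was taken.

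The label was checked against position and level. Of the shores, 1692 lay at 1 kb and 841 at 2 kb, and they bordered 2288 different CpG-rich tiles, 2030 of which had a single shore. Of all shores, 58 had CpG-rich tiles on both sides, and 137 pairs of shores touched each other, so neighbouring shores are not independent. Every autosome held shores, with 66 on chromosome 16 at the low end and 228 on chromosome 11 at the high end. Shores had a median of 6 CpGs and far tiles of 5, and both had a median of 6 common sites. The CpG-rich neighbour had a D0 level under 20% (D0 replicate 1) for 1633 shores (64.5%), between 20% and 60% for 352 (13.9%) and of 60% or more for 548 (21.6%), so that for more than 1 shore in 5 the neighbour was methylated in MEFs. CpG number counts only CpGs that RRBS covered, and no island or gene annotation was used here. At the edge of the rule, tiles at the same distances with 10 CpGs averaged 34.3% at D0 and those with 9 CpGs 41.5%.

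Read depth was similar for shores and far tiles apart from 1 tile. The libraries held between 39011213 and 107834007 reads over listed sites, and the median tile had 164 to 410 reads per library among shores and 146 to 379 among far tiles. Tile chr2:98495001-98496000 (GRCm39), 2 kb from a CpG-rich tile, held 78654 to 560080 reads per library at 5 common sites. That was 21.2% of all shore reads, and between 9.27% and 28.4% in single libraries, while the second deepest shore held 0.461% and the deepest far tile 0.118% of the far reads. It was methylated to 76.4% and 76.6% in the libraries of D0, to 22.2% and 22.6% in those of D12, and to 77.6% and 77.8% in those of iPSCs. The level summed over all reads is therefore given with and without this tile, beside the mean of the tile levels, in which each tile counts once. As a measure of background, 4517 autosomal tiles that stayed under 15% in every library had group means between 3.32% and 5.05%. From D2 on these means alternated between low and high. They were 5.05%, 4.95% and 5.00% for D4, D8 and D12, against 3.32%, 4.15% and 3.73% for D2, D6 and D10. D0 had 4.58% and iPSCs 4.03%. The cause of this alternation was not tested. Levels are averages over all cells of a library, so fewer methylated cells and less methylation in each cell cannot be told apart.

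Shores were less methylated than far tiles in all libraries, and the difference was smallest at D12 and largest in iPSCs. By tile mean, shores stood at 44.6% and 44.7% in the D0 libraries, 42.2% and 42.2% at D2, 44.0% and 44.1% at D4, 36.3% and 37.1% at D6, 27.4% and 26.2% at D8, 18.3% and 18.7% at D10, 14.6% and 14.2% at D12, and 39.3% and 39.1% in iPSCs. Far tiles stood at 63.8% and 64.0% at D0, 61.0% and 61.0% at D2, 61.8% and 62.0% at D4, 51.9% and 52.4% at D6, 38.0% and 36.8% at D8, 27.2% and 27.6% at D10, 17.8% and 17.6% at D12, and 62.8% and 62.6% in iPSCs. No shore value reached the far value of the same library. The difference of shores minus far tiles was -3.33 points ± 0.19 (SD, n = 2) at D12 and -19.3 ± 0.099 at D0, a change of 15.9 points. In iPSCs it was -23.6 ± 0.027, a change of -4.30 points from D0.

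**Figure D1:**
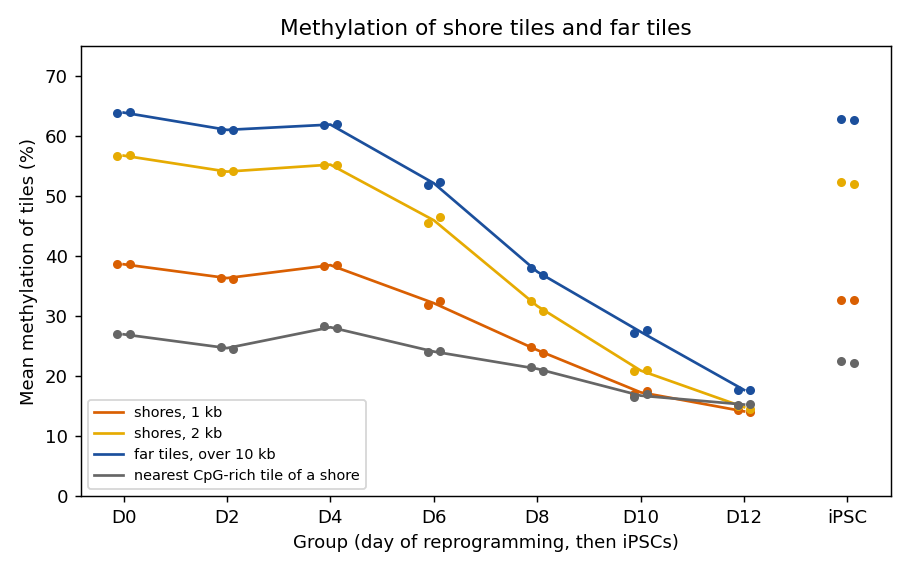
Mean methylation of tiles (%, y axis) in each group (x axis, days of reprogramming and then iPSCs) for shores at 1 kb, shores at 2 kb, far tiles and the nearest CpG-rich tile of each shore; points are the 2 libraries of a group and lines join the group means from D0 to D12. The curves lie between 14.1% and 17.7% at D12 and spread again in iPSCs.

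The difference varied with day beyond the spread between replicates. One value per library was compared across the 7 days, with the 14 libraries divided into 7 pairs in all 135135 ways. The exact permutation p was 7.40e-06 for the tile mean, the smallest this design gives, 1.48e-05 for the summed level without the deepest tile and 0.000266 with it. Summed over reads, shores were at 14.5% at D12 against 54.0% at D0, and at 12.7% against 45.5% without the deepest tile. Far tiles were at 16.9% at D12 and 66.0% at D0 on that scale. The summed difference was -2.44 points at D12 and -12.1 at D0 with the deepest tile, and -4.19 and -20.5 points without it, so that this 1 tile changed the size of the narrowing from 16.3 to 9.62 points. In iPSCs the summed difference was -17.5 points with the tile and -26.3 without, a change from D0 of -5.43 and -5.76 points. On a tile grid shifted by 500 bases that change was -0.727 points, and the narrowing at D12 was 13.2 points. For D12 against D0, or iPSCs against D0, alone, 2 libraries against 2 allow no exact p below 0.333, and each of these differences reached it.

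Against day, the difference over the 14 libraries had Pearson r = 0.961 and Spearman rho = 0.992 by tile mean (permutation p = 1.0e-05 for both, the smallest of these permutations, and the same after adjustment over the 2 coefficients). Leaving out the D0 libraries gave r = 0.978 and leaving out the D12 libraries r = 0.955. With reads summed, r was 0.842 (permutation p = 9.0e-05, adjusted 0.00018) and rho 0.726 (permutation p = 0.00459, adjusted 0.00459), with r = 0.922 without D0 and 0.734 without D12. These permutations treat the libraries of 1 day as independent, and they lay close together.

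Because shores also started lower, the ratio of the levels was compared as well. By tile mean, shores held 69.9% ± 0.086 (SD, n = 2) of the far level at D0, 81.2% ± 1.2 at D12 and 62.4% ± 0.059 in iPSCs. From D2 to D10 the ratio lay between 67.4% and 72.1% in single libraries. On the log2 scale the ratio was 0.22 higher at D12 than at D0 (exact permutation p over the 7 days 2.22e-05), and 0.13 higher with reads summed and the deepest tile left out (exact permutation p = 7.40e-06). With that tile it was 0.07 higher (exact permutation p = 6.66e-05). The background level, 5.00% at D12 and 4.58% at D0 in tiles that stayed low throughout, makes up a larger part of a low level; its part in the D12 ratio was not tested.

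The timing of the loss depended on how tiles were weighted. By tile mean, 26.1% of the whole D12 loss had taken place by D6 in shores and 25.5% in far tiles. By D8 the shares were 59.0% and 57.4%, and by D10 they were 86.3% and 79.1%. With reads summed, shores were ahead of far tiles by D6, with 34.4% against 25.6%, and by D8, with 67.0% against 58.0%. Without the deepest tile the shore shares were 31.9% by D6 and 62.6% by D8. By tile mean, at D12 shores kept 32.2% of their D0 level and far tiles 27.7%. From D12 the iPSC level had regained 81.9% of the loss in shores and 97.4% in far tiles. The iPSC minus D0 difference was -5.49 points ± 0.11 (SE, 2 libraries each) in shores and -1.19 ± 0.16 in far tiles.

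The distribution of shore levels had a low and a high part in MEFs. Shores under 20% made up 32.5% and 32.1% of all shores in the D0 libraries, 74.0% and 74.97% at D12 and 36.3% and 36.0% in iPSCs. Among far tiles these shares were 4.06% and 4.03%, 65.3% and 66.1%, and 4.37% and 4.39%. Shores at 80% or more were 14.1% and 14.3% at D0, 0.039% and 0% at D12, and 6.79% and 6.36% in iPSCs, whereas far tiles at 80% or more were 18.4% and 18.9% at D0 and 14.1% and 13.8% in iPSCs. The share of shores at 80% or more in iPSCs was thus under its D0 value by more than the replicates differed, in shores as in far tiles.

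By tile mean, distance from the CpG-rich tile ordered the levels in MEFs, in iPSCs and, over a much smaller range, at D12. At D0 the mean was 38.6% ± 0.044 (SD, n = 2) at 1 kb, 56.7% ± 0.050 at 2 kb, 60.9% ± 0.14 at 3 kb, 61.3% ± 0.033 at 4 to 5 kb, 62.7% ± 0.082 at 6 to 10 kb and 63.9% ± 0.15 beyond. At D12 the same bins held 14.1% ± 0.24, 14.8% ± 0.34, 15.5% ± 1.0, 16.3% ± 0.13, 16.5% ± 0.041 and 17.7% ± 0.082. In iPSCs they held 32.7% ± 0.078, 52.2% ± 0.27, 56.8% ± 0.084, 56.9% ± 0.22, 59.1% ± 0.081 and 62.7% ± 0.17. The span from 1 kb to beyond 10 kb was thus widest in iPSCs. At D12 the means kept the order of distance, but neighbouring bins from 1 to 10 kb lay less than 1 point apart. The SD at 3 kb was larger than that. With reads summed, the 2 kb bin, which holds the deepest tile, broke the order. It had 17.4% against 14.1% at 3 kb at D12, 68.0% against 61.8% at D0 and 64.5% against 57.3% in iPSCs. The fraction of the D0 level kept at D12 was 36.6% at 1 kb and 26.2% at 2 kb, against 27.7% in far tiles. The iPSC minus D0 difference was -5.96 points at 1 kb and -4.56 points at 2 kb.

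**Figure D2:**
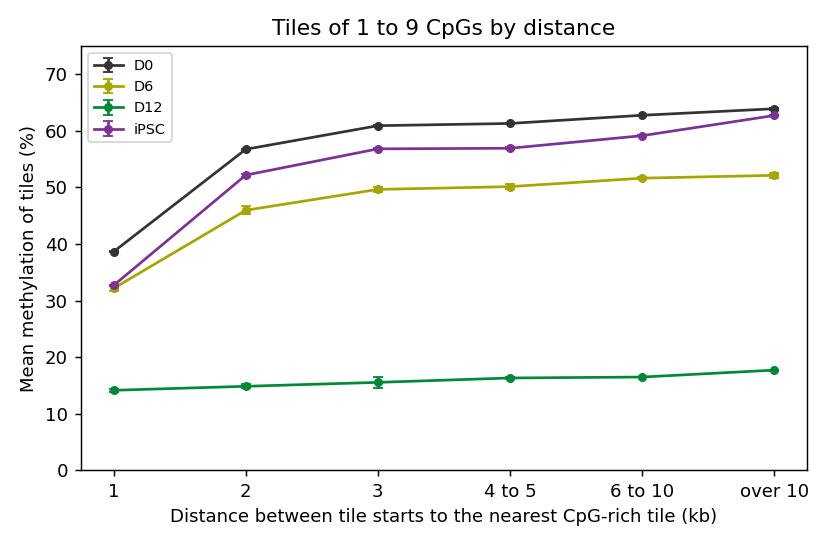
Mean methylation of tiles with 1 to 9 CpGs (%, y axis) by distance between the start of the tile and that of the nearest CpG-rich tile (kb, x axis) at D0, D6, D12 and in iPSCs; points are means of 2 libraries and bars their SD. Shores are the bins at 1 and 2 kb; the lines rise from 38.6% to 63.9% at D0 and from 32.7% to 62.7% in iPSCs, and span 14.1% to 17.7% at D12.

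The border itself was read as the shore level minus that of its own nearest CpG-rich tile. It was 17.6 and 17.7 points in the D0 libraries, 17.5 and 17.6 at D2, 15.7 and 16.2 at D4, 12.3 and 13.0 at D6, 5.82 and 5.29 at D8, 1.80 and 1.71 at D10, -0.706 and -1.11 at D12, and reached 16.7 and 16.8 in iPSCs. The mean border was thus within 2 points of 0 at D10 and D12 and close to its D0 height in iPSCs. From D0 to D12 it varied with day beyond the replicate spread (exact permutation p = 1.48e-05 over the 7 days), and the change at D12 against D0 was -18.6 points. Shores were above their CpG-rich neighbour in 68.6% of cases at D0, 47.5% at D12 and 71.3% in iPSCs. The neighbours themselves averaged 27.0% at D0, 15.3% at D12 and 22.4% in iPSCs.

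The state of the neighbour went with that of the shore. Where the CpG-rich tile was under 20% in D0 replicate 1, the shores averaged 33.6% at D0, 11.4% at D12 and 29.3% in iPSCs, and the CpG-rich tiles 7.32%, 10.1% and 6.96%. Where the CpG-rich tile was at 60% or more, the shores averaged 72.6%, 22.9% and 64.2% in the same order, and the CpG-rich tiles 80.9%, 29.0% and 64.2%. In this last class the CpG-rich tiles were above their shores at D0 and level with them in iPSCs. In D0 replicate 2, which had no part in the sorting, they had 80.8% and their shores 72.4%. The classes are set by the CpG-rich tile alone, which is a term of the border. Such sorting by itself favours a positive border in the low class and a negative one in the high class. The mean border near 0 at D10 pooled classes of opposite sign, with the same limit. Shores had 12.6% and their CpG-rich tiles 7.34% where the CpG-rich tile was low at D0, and 35.1% and 44.8% where it was high. Across the 2533 shores, the levels of shore and neighbour had r = 0.531 at D0, 0.455 at D12 and 0.552 in iPSCs; shores that share a CpG-rich tile and reads of the same fragments are not independent points.

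To separate place from starting level, each shore was compared with far tiles of the same CpG number and the same 10-point class of level in D0 replicate 1, and D0 replicate 2, which had no part in the classes, gave the baseline. All 2533 shores found matches, among 56541 far tiles in 80 classes with at least 10 far tiles each. In D0 replicate 2 the matched difference was -0.797 points. After subtraction of this baseline, shores minus matched far tiles came to 0.35 points at D2, 0.56 at D4, 0.30 at D6, -0.47 at D8 and -0.97 at D10, and to 0.37 at D12. These groups varied beyond their replicates (exact permutation p = 0.00491 over D2 to D12, 10395 divisions), but each mean lay within 1 point of 0 after the baseline was taken off. Before that, the difference was -1.27 points at D8 and -1.77 at D10, where shores had 18.5% and matched far tiles 20.3%. These means pool shores at 1 and 2 kb, which differed.

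In iPSCs the matched difference was -7.95 and -7.94 points in the libraries, outside the range of -0.979 to 0.592 of the other 12. The shores had 39.2% in iPSCs and the matched far tiles 47.9%. With iPSCs included, the exact permutation p was 0.000377 over the 7 groups D2 to iPSC, and with classes taken from D0 replicate 2 the iPSC difference was -8.36 points (p = 0.000363). The deficit was larger close to the CpG-rich tile. It was -9.43 points at 1 kb and -4.96 at 2 kb, against -3.74 at 3 kb, -3.78 at 4 to 5 kb and -2.86 at 6 to 10 kb. Each of these bins varied over the 7 groups beyond its replicates, with exact permutation p between 2.22e-05 and 0.000481 for classes from D0 replicate 1. This test covers all 7 groups and does not single out iPSCs. The outer bins were also low at D10, with -3.38 points at 3 kb, -2.96 at 4 to 5 kb and -2.53 at 6 to 10 kb. In iPSCs the bins at 3 and at 4 to 5 kb did not differ beyond the spread of their libraries. Shores of 1 to 4 CpGs had -8.21 points and those of 5 to 9 CpGs -7.80.

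Matched shores at the 2 distances went apart during demethylation. At D10 shores at 2 kb were at -3.55 points and shores at 1 kb at 0.306 points, and at D12 they were at -1.61 and 1.35. Tiles at 3 kb, which are not shores, were at -3.38 points at D10 and -1.74 at D12. The mean near 0 over all shores at D12 thus holds a positive value at 1 kb and a negative one at 2 kb. By neighbour, the iPSC deficit was -8.88 points next to CpG-rich tiles under 20% at D0, -8.76 next to those between 20% and 60% and -4.62 next to those at 60% or more.

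**Figure D3:**
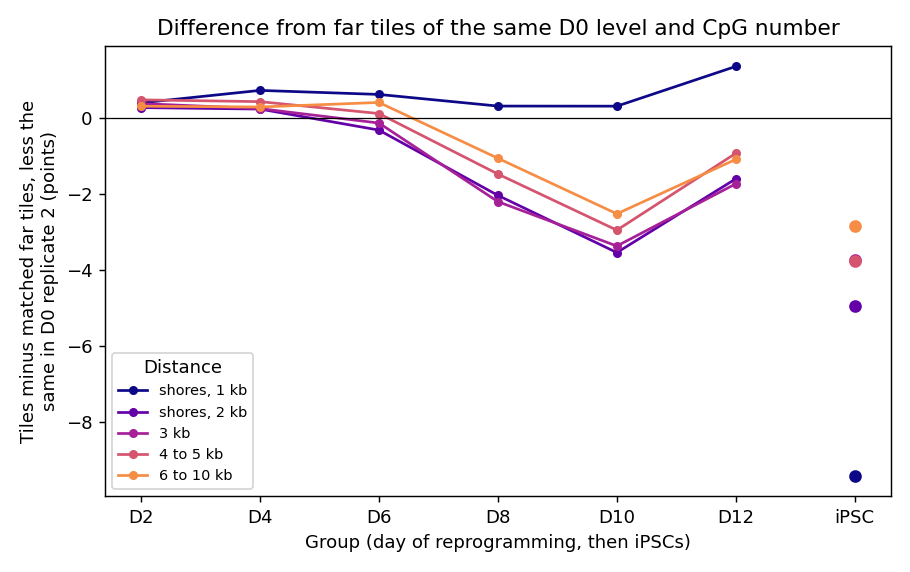
Tiles of 1 to 9 CpGs minus far tiles of the same CpG number and D0 class, less the same difference in D0 replicate 2 (percentage points, y axis), in each group from D2 to iPSC (x axis), by distance from the CpG-rich tile; each point is the mean of 2 libraries. Shores at 1 kb stay between 0.306 and 1.35 points through D12 and stand at -9.43 in iPSCs.

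By starting level, far tiles that were low in MEFs were higher in iPSCs while the class means of low shores stayed within 1 point of D0, and shores that were high in MEFs were further below D0 than far tiles. Shores under 20% in D0 replicate 1 (822 tiles) were 0.59 points above D0 replicate 2 in iPSCs, and far tiles of that class 8.52 points above it. In the class of 20% to 40% the values were -0.11 points for 299 shores and 11.6 for far tiles. In the class of 40% to 60% they were -7.98 for 375 shores and 1.98 for far tiles. Shores of 60% to 80% (681 tiles) came to -10.2 points and far tiles to -3.00, and shores of 80% or more (356 tiles) to -12.7 points and far tiles to -7.90. In all 5 classes the shore value was below the far value. Single shores within a class differed. Of 303 shores with a mean D0 level of 20% to 40%, 44 (14.5%) were called lower and 28 (9.24%) higher in iPSCs. Among far tiles of that class 4.60% were lower and 26.9% higher. Of 822 shores under 20%, none was lower and 37 (4.50%) were higher, against 0.798% and 17.8% of far tiles. The D0 level that sorts these tiles is part of this contrast. For D12, shores under 20% had 100.9% of the D0 level and far tiles 81.4%. These shares rest on low levels. Shores of that class had 8.45% at D12 and 8.37% in D0 replicate 2, and far tiles 8.78% and 10.8%. At D10 these shores were at 6.13% and these far tiles at 6.81%. Shores of 20% to 40% kept 44.4% of the D0 level and far tiles 34.1%. In the classes of 40% to 60%, 60% to 80% and 80% or more, shores kept 26.9%, 23.8% and 29.6%. Far tiles of these classes kept 26.5%, 25.9% and 29.8%.

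**Figure D4:**
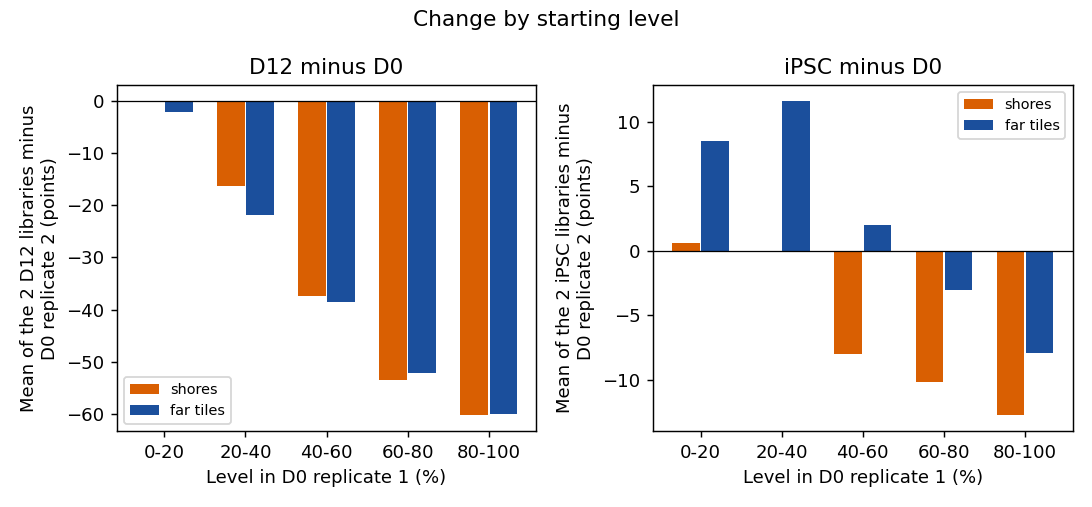
Change from D0 replicate 2 (percentage points, y axes) to the mean of the 2 D12 libraries (left) and of the 2 iPSC libraries (right) by class of level in D0 replicate 1 (%, x axes) in shores and far tiles. In iPSCs the bars of shores lie below those of far tiles in all 5 classes, from 0.59 against 8.52 points to -12.7 against -7.90.

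Single shores were called in a fit over all 94337 tiles where the group means were at least 10 points apart and edgeR's p, adjusted by the method of Benjamini and Hochberg, was under 0.05. In iPSCs against D0, 346 shores (13.7%) were lower and 81 (3.20%) higher. Over all tiles 9.42% were lower and 4.02% higher, and among far tiles 6.81% and 4.64%. Among shores at 1 kb 14.5% were lower and 2.66% higher, and at 2 kb 11.9% and 4.28%. A fall of 50 points or more was seen in 29 called shores and a rise of that size in 6, of 2533, against 1082 and 306 of all 94337 tiles, which are similar shares. These counts rest on both libraries of each group. Without D0 replicate 1, D0 replicate 2, iPSC replicate 1 or iPSC replicate 2 the lower shores were 191, 196, 216 and 226 and the higher ones 31, 35, 35 and 40.

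The calls of shores were set beside those of their CpG-rich tiles. Over all 9254 autosomal CpG-rich tiles, 11.97% were lower and 1.31% higher in iPSCs. Of the 346 lower shores, the nearest CpG-rich tile was lower in 114 (32.9%), higher in 2 and not called in 230 (66.5%), and among the 2106 shores with no call it was lower in 8.45% and higher in 1.33%. Of the CpG-rich tiles beside the lower shores, 49.7% were under 20% at D0. Of the 81 higher shores, 17 (21.0%) had a higher CpG-rich tile and 60 (74.1%) one with no call. The median iPSC minus D0 difference was -28.3 points in the lower shores and -7.31 in their CpG-rich tiles.

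**Figure D5:**
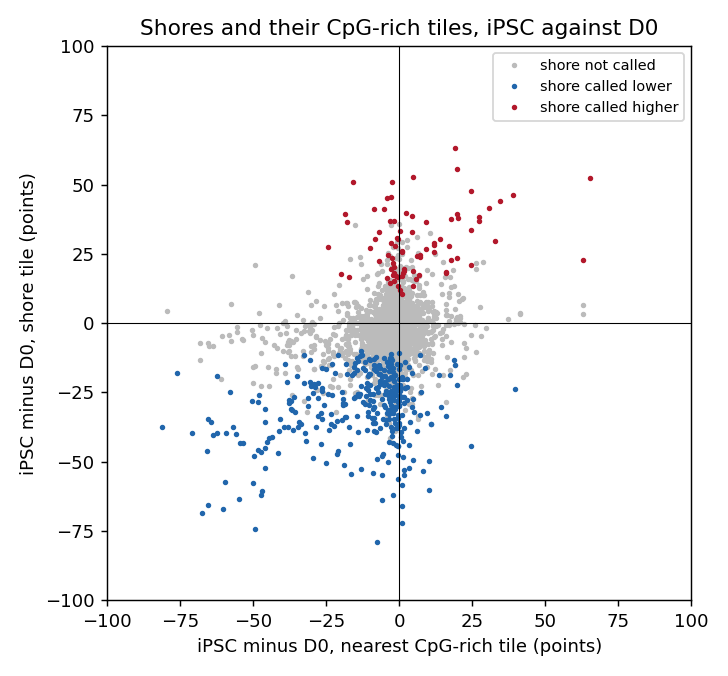
Difference between iPSCs and D0 (percentage points) in each of the 2533 shores (y axis) and in its nearest CpG-rich tile (x axis), by the call of the shore. Of the 346 shores called lower, 114 had a CpG-rich tile that was lower as well, and many others sit near 0 on the x axis.

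None of the 5 shores with the largest fall in iPSCs was called between iPSCs and D12. Tile chr11:69571001-69572000, with 6 common sites and 223 to 572 reads per library, had 85.3% and 88.6% at D0, 82.3% and 83.6% at D2, 82.5% and 81.4% at D4, 75.9% and 80.7% at D6, 59.6% and 54.7% at D8, 26.2% and 30.4% at D10, 3.50% and 9.06% at D12, and 8.402% and 7.58% in iPSCs. Both iPSC libraries lay far below both D0 libraries, and the difference was -78.96 points (edgeR adjusted p = 7.58e-06). The CpG-rich tile that starts at chr11:69572001-69573000 was at 5.75% in iPSCs and 13.2% at D0. Tiles chr14:52552001-52553000 and chr14:52551001-52552000 touch each other and border the same CpG-rich tile. The first had 15.3% and 9.62% in iPSCs and 86.9% and 82.3% at D0 (-72.1 points, edgeR adjusted p = 9.84e-06). The second had 16.7% and 16.3% in iPSCs and 81.7% and 83.6% at D0 (-66.2 points, edgeR adjusted p = 6.25e-06). Their CpG-rich tile stayed low, at 6.01% in iPSCs and 4.93% at D0.

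The other 2 of these shores lay beside a CpG-rich tile that was methylated at D0 and lower in iPSCs. Tile chr9:79807001-79808000 had 14.6% and 31.3% in iPSCs and 97.3% and 97.2% at D0 (-74.3 points, edgeR adjusted p = 0.000969), and its CpG-rich tile had 38.1% in iPSCs and 87.4% at D0. Tile chr10:60021001-60022000 had 9.33% and 15.6% in iPSCs and 83.3% and 76.1% at D0 (-67.2 points, edgeR adjusted p = 0.000646). Its CpG-rich tile was at 19.5% in iPSCs and 80.03% at D0.

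The 5 shores with the largest gain in iPSCs were under 40% in every library of the time course. Tile chr2:75254001-75255000, with 10 common sites and 299 to 1444 reads per library, had 26.7% and 31.8% at D0, 26.1% and 22.9% at D2, 26.1% and 23.6% at D4, 22.0% and 19.4% at D6, 14.7% and 21.2% at D8, 11.6% and 12.01% at D10, 4.50% and 4.88% at D12, and reached 84.6% and 85.3% in iPSCs. The iPSC libraries were above all others, by 55.7 points against D0 (edgeR adjusted p = 9.78e-06) and by 80.2 points against D12 (edgeR adjusted p = 7.66e-08). Its CpG-rich neighbour was at 63.4% in iPSCs and 43.7% at D0. Tile chr18:42529001-42530000 had 66.2% and 65.5% in iPSCs and 5.12% and 0.386% at D0 (63.1 points, edgeR adjusted p = 0.00254). Tile chr6:125781001-125782000 had 60.7% and 63.7% in iPSCs and 5.23% and 14.1% at D0 (52.5 points, edgeR adjusted p = 0.00203), and its CpG-rich tile was higher as well, with 82.0% in iPSCs and 16.6% at D0.

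The other 2 had gains beside CpG-rich tiles of different levels. Tile chr19:59181001-59182000 had 55.8% and 48.6% in iPSCs and 6.82% and 2.38% at D0 (47.6 points, edgeR adjusted p = 0.000279), with 30.3% in iPSCs and 5.59% at D0 in its neighbour. Tile chr4:135869001-135870000 had 70.1% and 61.0% in iPSCs and 15.9% and 13.0% at D0 (51.0 points, edgeR adjusted p = 0.00990). The CpG-rich tile 2 kb away was at 2.85% in iPSCs and 5.36% at D0. The call of this shore was lost when either D0 library or iPSC replicate 1 was left out, with adjusted p up to 0.0720.

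At D12 against D0, 1626 shores (64.2%) were lower and 23 (0.908%) higher, where 82.7% of all tiles were lower and 0.649% higher. Far tiles were lower in 94.2% and higher in 0.0972%. Shores and far tiles started from different levels. By mean D0 level, 99.3% of shores and 99.6% of far tiles at 60% to 80% were lower, and 100% and 99.9% at 80% or more. At 40% to 60% these shares were 93.5% and 97.5%, and at 20% to 40% 68.6% and 78.7%. Under 20%, 4.74% of 822 shores and 9.44% of 2256 far tiles were lower, and 2.68% and 2.26% higher. The D0 level that sorts them is part of this contrast. The lower shores made up 54.5% of those at 1 kb and 83.7% of those at 2 kb. The higher ones numbered 21 at 1 kb and 2 at 2 kb. Among the 1626 lower shores the nearest CpG-rich tile was lower in 724 (44.5%), and among the 884 with no call in 57 (6.45%), where 28.0% of all autosomal CpG-rich tiles were lower. The CpG-rich tiles beside the shores with no call averaged 10.3% at D0. The shores without a call averaged 10.5% at D12 and 11.01% at D0.

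Most calls against D0 appeared between D6 and D8. At D2, 1 shore was lower and none higher, where 0.0488% of all tiles were lower and 0% higher (edgeR; at an unadjusted p under 0.05, 122 shores were lower and 11 higher, and a quasi-binomial model called 5). At D4, 2 shores were lower and 1 higher, where 0.0763% of all tiles were lower and 0.00424% higher. D6 had 392 lower shores (15.5%) and 4 higher, where 21.3% of all tiles were lower and 0.104% higher. Leaving out D0 replicate 1, D0 replicate 2, D6 replicate 1 or D6 replicate 2 left 51, 55, 115 and 158 calls of the 396 at D6. At D8, 1381 shores (54.5%) were lower and 37 higher, where 72.3% of all tiles were lower and 0.544% higher. At D10 these were 1623 (64.1%) and 5, where 81.6% of all tiles were lower and 0.201% higher. All of these comparisons share the D0 libraries. The background in tiles that stayed low throughout was 5.05% at D4, 4.15% at D6, 4.95% at D8 and 3.73% at D10. Its part in the number of higher calls was not tested.

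The 5 shores with the largest fall at D12 had between 0.938% and 10.99% left there in all D12 libraries, and were high in iPSCs. Tile chr5:116159001-116160000, with 16 common sites and 485 to 1673 reads per library, had 88.5% and 88.0% at D0, 87.1% and 87.2% at D2, 87.7% and 83.9% at D4, 66.6% and 77.0% at D6, 30.6% and 27.1% at D8, 17.2% and 8.28% at D10, 2.23% and 0.938% at D12, and reached 71.3% and 69.1% in iPSCs. The difference of D12 from D0 was -86.6 points (edgeR adjusted p = 8.22e-08). Tile chr11:59737001-59738000 had 10.99% and 10.88% at D12 and 98.7% and 100% at D0 (-88.4 points, edgeR adjusted p = 2.26e-06), and 92.3% and 86.9% in iPSCs. Tile chr2:80147001-80148000 had 1.30% and 2.55% at D12 and 83.9% and 84.5% at D0 (-82.3 points, edgeR adjusted p = 2.13e-07), and 79.2% and 83.6% in iPSCs. The 2 others, chr19:38371001-38372000 and chr5:136168001-136169000, differed from D0 by -83.5 and -83.4 points at D12. The iPSC libraries had 56.6% and 60.6% for the first of these and 77.1% and 66.3% for the second. All 5 had regained over 50% methylation in each iPSC library.

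The 5 largest gains at D12 against D0 were smaller than these losses, and some of these shores were also high at D4 and D8. Tile chr15:83394001-83395000 had 33.0% and 41.8% at D12 and 8.54% and 6.76% at D0 (29.8 points, edgeR adjusted p = 0.000121). It had 14.8% and 5.28% in iPSCs. Tile chr8:65301001-65302000 had 43.6% and 37.6% at D12 and 19.8% and 5.33% at D0 (28.0 points, edgeR adjusted p = 0.0210). Tile chr2:31135001-31136000 had 17.5% and 44.4% at D12 and 4.08% and 4.29% at D0 (26.8 points, edgeR adjusted p = 0.0312). The calls of the last 2 were lost in some fits that left out 1 library, with adjusted p up to 0.144 for chr8:65301001-65302000 without D0 replicate 2 or D12 replicate 1, and up to 0.167 for chr2:31135001-31136000 without either D0 library or D12 replicate 2. Tile chr15:76789001-76790000 had 25.9% and 41.98% at D12 and 7.77% and 10.4% at D0 (24.9 points, edgeR adjusted p = 0.00441). Tile chr5:37875001-37876000 had 24.8% and 20.3% at D12 and 0% in both D0 libraries (22.6 points, edgeR adjusted p = 0.00379). By group mean, chr15:83394001-83395000 had 29.2% at D4, 27.0% at D8 and 4.65% at D10. On these days chr8:65301001-65302000 had 35.7%, 40.4% and 14.1%, and chr15:76789001-76790000 had 24.0%, 31.2% and 22.7%. Tile chr2:31135001-31136000 had 14.2%, 6.07% and 11.6%, and chr5:37875001-37876000 had 7.52%, 7.73% and 6.88%.

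Between D12 and iPSCs, 1495 shores (59.0%) were higher in iPSCs and 58 (2.29%) lower, where 79.8% of all tiles were higher and 1.48% lower. Far tiles were higher in 93.0% and lower in 0.316%. By mean D0 level, 93.9% of shores and 97.6% of far tiles at 60% to 80% were higher, and 8.88% and 28.9% under 20%. Lower shores were 55 of 1692 at 1 kb and 3 of 841 at 2 kb. Tile chr2:75254001-75255000, described above, had the largest gain, followed by chr2:80147001-80148000 and chr11:59737001-59738000 with 79.5 and 78.7 points. Tile chr7:12786001-12787000 had 82.1% and 78.7% in iPSCs and 3.70% and 3.17% at D12 (76.9 points, edgeR adjusted p = 7.66e-08). Tile chr11:119901001-119902000 had 90.2% and 81.2% in iPSCs and 10.8% and 8.08% at D12 (76.3 points, edgeR adjusted p = 1.24e-06).

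Some shores kept part of their methylation through D12 and were lower in iPSCs than at D12. Tile chr8:62003001-62004000, with 375 to 1228 reads per library at 10 common sites, had 69.6% and 66.5% at D0, 62.4% and 68.5% at D2, 73.8% and 71.6% at D4, 70.5% and 67.5% at D6, 64.2% and 64.9% at D8, 58.1% and 62.2% at D10, 47.3% and 39.8% at D12, and came to 6.13% and 2.77% in iPSCs. The iPSC minus D12 difference was -39.1 points (edgeR adjusted p = 1.005e-06), and its CpG-rich tile was at 21.3% in iPSCs and 45.4% at D12. Tile chr2:63554001-63555000 had 35.7% and 32.4% in iPSCs and 68.7% and 72.4% at D12 (-36.4 points, edgeR adjusted p = 3.87e-05), and its CpG-rich tile had 31.2% in iPSCs and 51.3% at D12. Tile chr15:3837001-3838000 had 40.6% and 29.8% in iPSCs and 69.2% and 59.3% at D12 (-29.1 points, edgeR adjusted p = 0.000471). Their D0 levels had been 91.9% and 91.3%, and 96.1% and 95.3%.

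The other 2 shores with the largest fall between D12 and iPSCs had D0 levels under 25% in both libraries. Tile chr9:51677001-51678000, at 14.6% and 20.7% at D0, had 5.56% and 3.94% in iPSCs and 41.2% and 26.8% at D12 (-29.3 points, edgeR adjusted p = 0.0359), and its call was lost when any of the 4 libraries of the comparison was left out, with adjusted p up to 0.138. Tile chr8:65301001-65302000, which was higher at D12 than at D0, had 19.9% and 5.38% in iPSCs (-28.0 points against D12, edgeR adjusted p = 0.0186). Its call was lost without D12 replicate 1 or iPSC replicate 2. With any 1 of the 4 libraries left out, the difference lay between -35.2 and -20.7 points.

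Among the 676 shores with at least 5 common sites, 50 reads in each library and 60% or more in both D0 libraries, the highest share of the D0 level at D12 was 77.0%, in chr2:63554001-63555000. It was followed by chr4:61490001-61491000 with 76.3%, which had 68.7% and 60.9% at D12, 84.0% and 85.8% at D0 and 85.1% and 83.5% in iPSCs. Tile chr8:45462001-45463000 kept 71.9%, with 67.0% and 66.5% at D12, 94.1% and 91.6% at D0 and 92.7% and 90.7% in iPSCs. The CpG-rich tiles beside these 3 shores were at 51.3%, 41.1% and 38.5% at D12 and at 90.7%, 82.7% and 95.7% at D0, in the same order. They were chosen by this share, which is given as a description.

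For scale, 3 shores stood nearest to the median D12 minus D0 difference of all shores, which was -32.9 points. Tile chr2:157400001-157401000 had 30.9% and 31.2% at D12 and 62.8% and 65.1% at D0. Tile chr19:47328001-47329000 had 22.7% and 22.1% at D12 and 55.7% and 54.9% at D0. Tile chr18:34855001-34856000 had 12.8% and 8.45% at D12 and 43.2% and 43.8% at D0. In iPSCs they were at 53.8% and 61.0%, 54.7% and 40.9%, and 44.6% and 40.7%, and none was called in iPSCs against D0 (edgeR adjusted p = 0.707, 0.578 and 0.965).

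By chromosome, the mean shore level in iPSCs was below that at D0 on all 19 autosomes, with a difference of -1.002 points on chromosome 18 (76 shores) at the small end and -8.64 points on chromosome 17 (127 shores) at the large end. At D12 shores kept between 29.6% of the D0 level on chromosome 17 and 38.1% on chromosome 12. Replicates of D0 had r = 0.981 across the 2533 shores, those of iPSCs 0.966 and those of D12 0.647. The median absolute difference between replicates of a shore was 2.96 points at D0, 5.67 at D8, 4.60 at D12 and 3.64 in iPSCs. The squared difference was also divided by the variance expected from read sampling. The mean of this ratio was largest at D12, with 8.78, against 3.57 at D0, 7.33 at D8 and 3.62 in iPSCs. Replicates thus differed most in points at D8 and most beyond read sampling at D12.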

How the data were processed

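DNA methylation was measured by RRBS in 16 libraries, 2 per group. Per the labels' protocols, MspI-cut DNA went through bisulfite conversion and 15 PCR cycles and was read at 150 bp. Per the submitters' processing notes, fastp 0.20.1, Bismark 0.23.0, Bowtie2 and methylKit were used on GRCm39. The sources used here do not give the trimming of filled-in ends or the handling of duplicates, and reads are not independent molecules. The deposited tables list sites with at least 10 reads; coverage is a count of reads, per the file headers, and freqC and freqT are percent values, as deposited. Coverage times percent gave whole methylated counts at all sites within the rounding of the percent.

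Sites with at least 10 reads in all libraries (873038) were grouped into 1-kb tiles of at least 3 sites. Members, comparison tiles and lists were chosen with earlier results of these data known. Tests on single tiles used edgeR 4.0.16 (R 4.3.3) quasi-likelihood on methylated and unmethylated counts of all 94337 tiles. The fit had library effects, a methylation coefficient per group, a common dispersion and 8 residual degrees of freedom. Benjamini-Hochberg adjustment ran over all tiles. This fit was tested on simulated data with the same spread in all groups and changes in iPSCs only. Groups of unequal spread were not simulated. Levels were compared by exact two-sided permutation tests of 1 value per library, and correlations by 100000 permutations (Python 3.11.15, scipy 1.17.1). The labels do not say that replicates were separate cultures, so p-values cover only the spread among these libraries, and that spread may be technical.

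Shores named in the text were the 5 with the largest change in each direction among called shores with at least 5 common sites and 50 reads in each library, for each of the 3 comparisons of iPSC, D12 and D0; the 3 of these with a D0 level of at least 60% in both libraries that kept the largest share at D12; and the 3 shores nearest to the median change at D12. The deepest shore was chosen after its values were seen. Alternatives were other coverage, site, CpG-number and distance limits, a shifted grid, merged strands, other models and each library left out. The gene tables given for another build were not used, and no genome sequence was used here.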

Additional observations from a re-analysis of the deposited data

How the results depend on the processing

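Of the comparisons over shores, 278 recomputed values kept their direction and their side of the threshold, or stayed within 1.5 times for a count, and 41 moved. None reversed. The summed iPSC minus D0 change of shores minus far tiles has an exact p of at least 0.333. It could therefore change in direction only, and its value of -0.727 points on the shifted grid counts as kept. The narrowing of the difference between shores and far tiles from D0 to D12, its ratio, the border to the CpG-rich tile and the matched comparisons kept direction and call in all alternatives run for them, but not their size. These 2 measures were read with reads summed, and the main setting includes the deepest tile. The narrowing (9.62 points) ranged from 6.50 at a coverage of 20 to 22.1 for shores at 1 kb only or CpG-rich tiles from 30 CpGs. Both settings at 22.1 leave out the deepest tile. Without that tile alone the narrowing was 16.3 points, and by tile mean 15.9. The log2 ratio change (0.07) ranged from 0.04 with far tiles beyond 50 kb to 0.28 at 1 kb only. It was 0.13 without that tile alone and 0.22 by tile mean. The matched D12 value (0.37 points) ranged from 0.06 with at least 5 common sites to 1.35 at 1 kb only, and the border change (-18.6 points) was -12.5 at 1 kb only. The summed iPSC minus D0 change of shores minus far tiles (-5.43 points) was -0.727 on the shifted grid. The matched iPSC difference ranged from -7.67 points (matched for D0 level only) to -9.43 (shores at 1 kb only). It could not be computed without a D0 library, since both are needed for the classes and the baseline. Leaving out the deepest tile, and all alternatives for the iPSC differences, were chosen after seeing the data. Shares of shores called moved as follows, and the cause was not tested beyond what each setting removes. With a minimum of 25 points, iPSCs against D0 had 8.45% lower and 1.82% higher, D12 against D0 0.158% higher, iPSCs against D12 0.395% lower and D6 against D0 3.36%. With only the compared groups in the fit, D12 had 1.42% higher, and D2 and D4 had 0%. For D2 (0.0395%, 1 shore) the other values were 0.112% at a coverage of 20, 0% on the shifted grid, 0.0619% with at least 5 common sites, 0.0851% with CpG-rich tiles from 30 CpGs, 0.0633% with any 1-kb window as neighbour and 0.197% with the quasi-binomial model. For D4 (0.118%, 3 shores) they were 0.449%, 0.0403%, 0.248% and 0.255% under the first 4 of these settings, 0.0591% at 1 kb only and 0.316% with the quasi-binomial model. With 1 library left out, where the lone library of a group is taken to vary like the other groups, iPSCs against D0 had 7.54% to 8.92% lower and 1.22% to 1.58% higher, D6 2.01% to 6.24%, and D2 and D4 0% throughout. Among the named shores, 18 recomputed calls were lost and 296 kept, with the losses at 6 tiles: those given with the results, chr2:31135001-31136000 and chr9:51677001-51678000 also under the quasi-binomial model, and chr15:76789001-76790000 and chr5:37875001-37876000 only by the minimum of 25 points.

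The replicate numbers did not pair the libraries: over 28 pairs of groups, the correlation of same-numbered deviations across all tiles lay between -0.014 and 0.008. A fit with the replicate number as a block called 12.99% of shores lower in iPSCs against D0 and 64.07% lower at D12, and left 0.0395% called at D4; no other share of shores moved by more than 1.5 times.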
